A study of Ovis aries with 16 samples.

Results

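COX1, COX2, COX3, CYTB and ATP6 are 5 protein-coding genes of the mitochondrial genome. Their transcripts were followed in the perirenal fat of 16 sheep fetuses, as 5 of the 35219 transcripts in the deposited table. The 5 transcripts were taken by the identifiers that the study's mitochondrial gene list pairs with these names: ENSOART00020000017 for COX1, ENSOART00020000020 for COX2, ENSOART00020000023 for COX3, ENSOART00020000034 for CYTB and ENSOART00020000022 for ATP6. All 5 passed the filter of at least 20 TPM in at least 3 libraries. TPM is a share of the library corrected for transcript length, and the values of each library sum to 1000000.

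The study compared the sexes and fetal growth restriction (FGR) in the offspring of crossbred Columbia-Rambouillet ewes, each carrying 1 fetus. The 4 control males (MC) and 4 control females (FC) came from ewes kept at a lower ambient temperature and pair-fed. The 4 growth-restricted males (MFGR) and 4 growth-restricted females (FFGR) came from ewes made hyperthermic by ambient heat during pregnancy, which limits placental growth. The study names no transgene and no drug as a treatment of the groups. Ewe and fetus were killed with Euthasol after physiological measurements that were reported elsewhere. All fetuses were near term, and each gave 1 library from a piece of bulk tissue.

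The electron transport chain passes electrons to oxygen and pumps protons across the inner mitochondrial membrane. CYTB is the mitochondrially encoded subunit of complex III. COX1, COX2 and COX3 form the core of complex IV, cytochrome c oxidase, in which COX1 holds the site of oxygen reduction, COX2 takes electrons from cytochrome c and COX3 stabilises the core. ATP6 is the membrane subunit of ATP synthase through which protons return. Perirenal fat of the sheep fetus is a brown fat depot, in which UCP1 lets protons bypass ATP synthase and release heat. The mitochondrial genome is transcribed into long precursors that are cut into single RNAs. In the RefSeq annotation of the sheep assembly ARS-UI_Ramb_v3.0, which is not the build of the deposited table, COX1, COX2, ATP8, ATP6, COX3 and ND3 follow one another among 13 protein-coding mitochondrial genes, ATP6 overlaps ATP8, and CYTB comes after ND6. ATP8 is not analysed here, and how reads in its overlap with ATP6 were assigned is not given in the sources used here. Whether reads from nuclear copies of mitochondrial genes contributed was not tested.

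The libraries listed between 20153 and 21917 transcripts above 0. Read counts are not part of the table, so the depth is unknown and no counting interval can be given. The label of the tissue was checked with markers. UCP1 ranked between 16 and 104 among all transcripts in the 16 libraries, with group means from 1957 TPM in MC to 2710.1 TPM in FC. Mean ADIPOQ, which encodes the fat cell hormone adiponectin, lay between 2015 TPM in MFGR and 2699 TPM in FFGR.

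The 5 transcripts were among the most abundant of every library. COX1 ranked 1 or 2 in each library, COX2 2 to 6, COX3 2 to 4, CYTB 5 to 8 and ATP6 1 to 5. Together they made up 26.6% of the summed TPM in MC (23.5% to 29.6%) and 23.0% in MFGR (19.8% to 27.0%) for males, and 23.6% in FC (20.7% to 26.8%) and 22.5% in FFGR (17.8% to 25.8%) for females. The ranges of the 4 groups overlapped. In bulk tissue, fewer cells of a type and less RNA per cell cannot be told apart, and a TPM value also moves when other abundant transcripts of its library move.

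**Figure D1:**
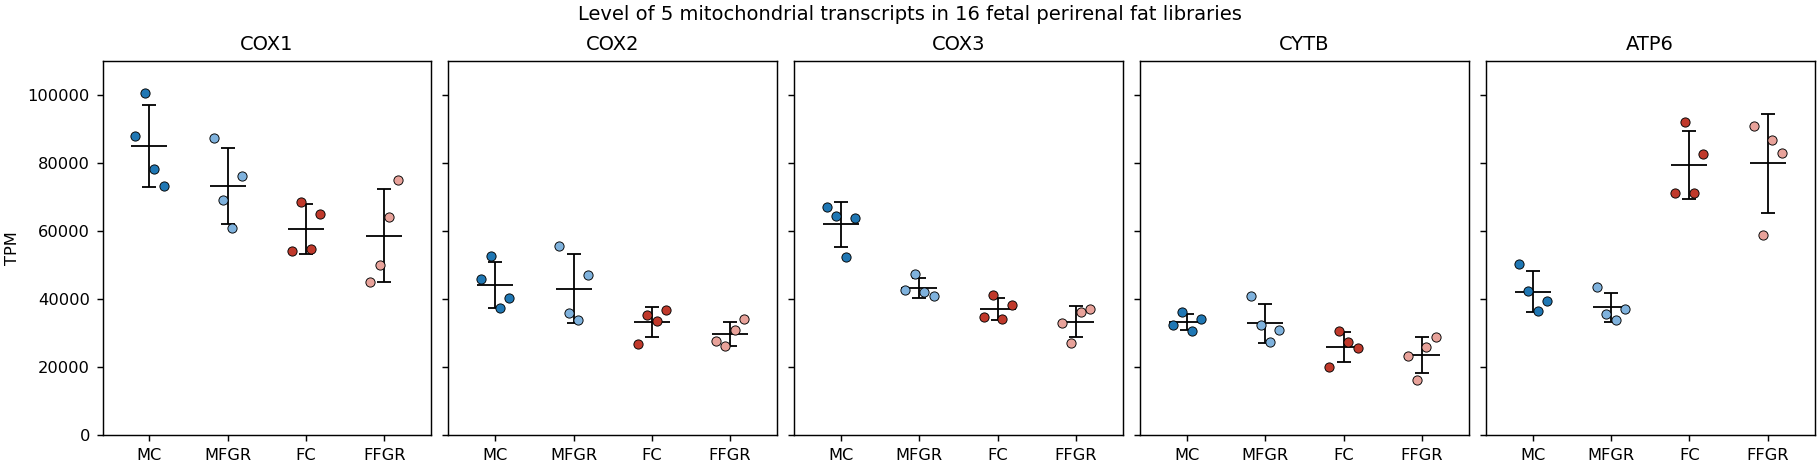
Level of each of the 5 transcripts in TPM (vertical axis) in every library, by group (horizontal axis). Points are single fetuses, the long line is the mean of 4 and the bars are 1 SD; ATP6 is the only panel in which the females lie above the males.

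COX1, the catalytic subunit of cytochrome c oxidase, was measured at 87851, 100551, 78370.4 and 73134 TPM in the MC libraries. The MFGR libraries held 87293, 69147, 60814 and 76151 TPM. In females the values were 54148, 68678, 54819 and 64997 TPM in FC and 45095, 50009, 64117 and 75104 TPM in FFGR. Every MC value lay above every FC value, while MFGR and FFGR overlapped. The group means were 84977 ± 12038 TPM in MC and 73351 ± 11211 in MFGR for males, and 60660.3 ± 7294 in FC and 58581 ± 13650 in FFGR for females (SD, n = 4 each).

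COX2, which carries the copper centre that accepts electrons, was at 45764, 52642, 37279 and 40338 TPM in MC. Its values were 55457, 35886, 33880.4 and 46969 TPM in MFGR. FC held 26864, 35326, 33512 and 36906 TPM, and FFGR held 27605, 26100.4, 30901 and 34238 TPM. The lowest MC library was above the highest FC library by a small margin, and the lowest MFGR library was below the highest FFGR library. Mean COX2 was 44006 ± 6742 TPM in MC and 43048 ± 10078 in MFGR for males, and 33152 ± 4416 in FC and 29711 ± 3623 in FFGR for females (SD, n = 4 each).

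COX3, the remaining core subunit, stood apart in control males. It was at 67150, 64361, 52297 and 63926 TPM in MC, against 42623, 47328, 41928 and 40868 TPM in MFGR. FC held 34847, 41267, 34011 and 38213 TPM, and FFGR held 33037, 27092, 36272 and 36928 TPM. The 4 MC libraries were the 4 highest of the 16, and every MFGR library was above every FFGR library. The means were 61934 ± 6581 TPM in MC and 43187 ± 2854 in MFGR for males, and 37084 ± 3328 in FC and 33332 ± 4495 in FFGR for females (SD, n = 4 each).

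CYTB of complex III had the lowest level of the 5 transcripts in all 16 libraries. Its values were 32420, 36145, 30524 and 34159 TPM in MC and 40855, 32364, 27322 and 30913 TPM in MFGR. The female libraries held 19929, 30516, 27278 and 25687 TPM in FC and 23363, 16254, 25861 and 28798 TPM in FFGR. The lowest MC value, 30524 TPM, was just above the highest FC value, 30516 TPM, and MFGR overlapped FFGR. Mean CYTB was 33312 ± 2402 TPM in MC and 32863 ± 5734 in MFGR for males, and 25853 ± 4431 in FC and 23569 ± 5359 in FFGR for females (SD, n = 4 each).

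ATP6 of ATP synthase ran the other way. MC held 50342, 42446, 36344 and 39393 TPM and MFGR 43403, 35714, 33914 and 36982 TPM. FC held 71251, 92039, 71312 and 82731 TPM and FFGR 91004, 58722, 86846 and 83043 TPM. All 8 female libraries were above all 8 male libraries. The means were 42132 ± 6014 TPM in MC and 37503 ± 4130 in MFGR for males, and 79333 ± 10044 in FC and 79904 ± 14491 in FFGR for females (SD, n = 4 each).

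The order of the levels therefore differed between the sexes. In all 8 female libraries it was ATP6, COX1, COX3, COX2 and CYTB from high to low. In all 8 male libraries COX1 came first and CYTB last, while COX3, COX2 and ATP6 changed places between fetuses. In MC the ranges of COX1 and COX3 did not overlap, nor did those of ATP6 and CYTB, whereas COX3 and COX2 overlapped, as did COX2 and ATP6. In MFGR only the first step, from COX1 to COX3, was without overlap. In FC the steps from ATP6 to COX1 and from COX1 to COX3 were without overlap, and in FFGR only the step from COX1 to COX3 was.

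Sex was first compared in control fetuses, MC against FC. COX3 was 1.67-fold higher in MC (log2 difference 0.74, 95% CI of the fold 1.38 to 2.01, SE of the log2 difference 0.13, adjusted p = 0.000278) and was called. ATP6 was 1.89-fold lower (log2 difference -0.92, 95% CI -1.25 to -0.58, SE 0.16, adjusted p = 0.000303) and was called as well. COX1 was 1.40-fold higher (log2 difference 0.48, SE 0.18, adjusted p = 0.0373), which passed the adjusted p but not the fold of 1.5. COX2 had a log2 difference of 0.41 (95% CI 0.038 to 0.78, adjusted p = 0.0702) and CYTB one of 0.38 (95% CI -0.0086 to 0.77, adjusted p = 0.105), and neither passed. Adjusted p-values are those of limma on log2(TPM + 1) over all 4574 transcripts tested, and a call needed an adjusted p under 0.05 and a fold above 1.5. So 1 of the 5 transcripts was called higher in MC, against 6.23% of all transcripts tested, and 1 was called lower, against 22.6%. The ranges of MC and FC were free of overlap for 5 of 5 members, against 37.1% of all transcripts. Dropping the filter on low values gave 2741 calls over all transcripts. Both member calls were lost under it (adjusted p = 0.376 for COX3 and 0.349 for ATP6 in limma), and the cause was not tested. They stayed without any 1 library, while the adjusted p of COX1 then ran from 0.0238 to 0.102 and passed 0.05 upwards without MC replicate 1 or 2 or FC replicate 1, 3 or 4.

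The same question was asked in growth-restricted fetuses, MFGR against FFGR, whose libraries do not enter the comparison of controls. ATP6 was 2.11-fold lower in MFGR (log2 difference -1.08, 95% CI -1.42 to -0.74, SE 0.16, adjusted p = 6.59e-05) and was the only member called. COX2 (log2 difference 0.51, adjusted p = 0.025), CYTB (0.50, adjusted p = 0.0377) and COX3 (0.38, adjusted p = 0.0231) passed the adjusted p in limma below the fold of 1.5. COX1 did not, with a log2 difference of 0.34 (95% CI -0.034 to 0.72, adjusted p = 0.128). Of all 4574 transcripts, 2053 passed the adjusted p in limma whatever their fold. None of the members was called higher, against 6.49% of all transcripts, and 1 was called lower, against 23.6%. The ranges of MFGR and FFGR were apart for 2 members, COX3 and ATP6, against 42.3% of all transcripts. The call of ATP6 was lost without the filter (adjusted p = 0.238 in limma), where 3306 transcripts were called, and stayed without any 1 library. The adjusted p in limma of COX2, CYTB and COX3 reached 0.0842 and 0.115 without MFGR replicate 1 and 0.0623 without MFGR replicate 2.

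The 3 COX transcripts and CYTB were higher and ATP6 lower in males in both comparisons, and these directions held under each scaling tried. The size depended on the scaling. On the TPM scale the median log2 difference of all 4574 transcripts was -0.20 in MC against FC and -0.19 in MFGR against FFGR, so the COX transcripts and CYTB lay further above the median transcript than above 0. With median-of-ratios scaling, which brought the median of all transcripts to -0.0095, 3 members were called higher in MC and 1 lower, the added calls being COX1 (log2 difference 0.69, adjusted p = 0.0168) and COX2 (0.61, adjusted p = 0.0354). In MFGR against FFGR the same scaling called COX2 (0.71, adjusted p = 0.0153) and CYTB (0.69, adjusted p = 0.0181) higher beside ATP6 lower. Of all 4574 transcripts, this scaling called 1257 either way in MC against FC and 1354 in MFGR against FFGR. Rescaling without the 11 mitochondrial transcripts called 2 members higher in MC and 1 lower, with COX1 added (0.62, adjusted p = 0.0367). It called 1256 of the 4574 transcripts either way in this comparison. With quantile normalization, which gives each transcript a value by its rank, COX3 in MC against FC was at 0.57 (adjusted p = 0.00261), under the fold of 1.5. Quantile normalization removes the spread of transcripts whose rank is fixed within a sex, as for COX1 at rank 1 in each male and 2 in each female library, so its adjusted p says nothing for them. COX3 was at rank 2 in each MC and 3 in each FC library. The spread of COX3 itself under this setting thus came only from MFGR and FFGR, and limma combines it with a prior variance taken from all transcripts. Over the other 28 alternatives the adjusted p in MC against FC ran from 0.0168 to 0.701 for COX1, 0.0354 to 0.638 for COX2, 2.26e-05 to 0.376 for COX3 and 5.48e-05 to 0.349 for ATP6, and in MFGR against FFGR from 0.0117 to 0.514 for COX2 and 0.0181 to 0.475 for CYTB.

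**Figure D2:**
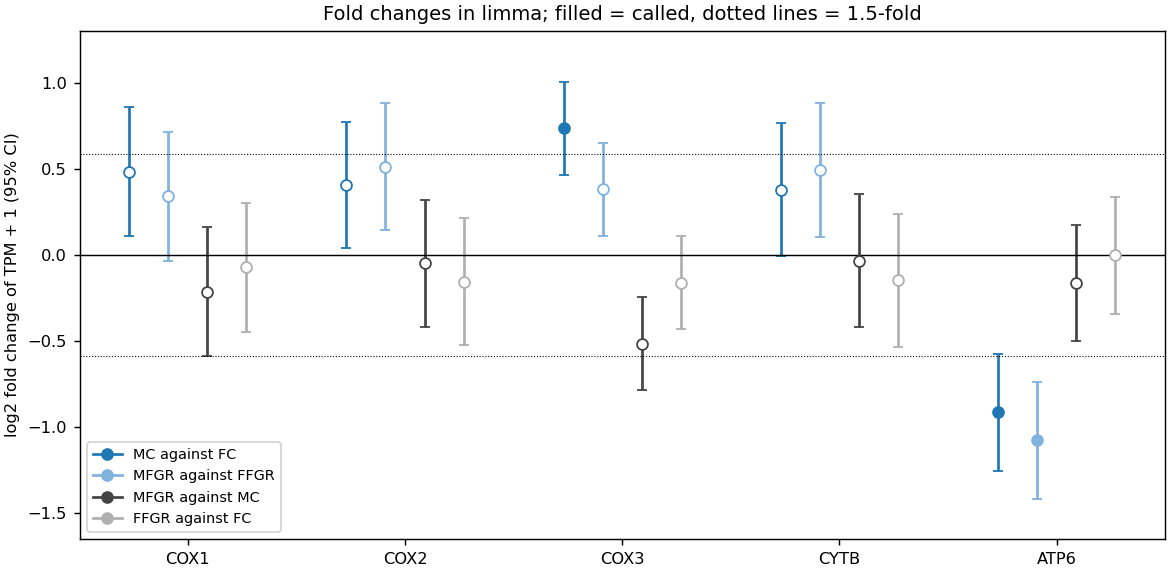
Log2 fold change of each transcript on the log2(TPM + 1) scale (vertical axis) with its 95% confidence interval in limma, for 4 comparisons of 4 against 4 fetuses. Filled points were called and dotted lines mark 1.5-fold; the called points are COX3 at 0.74 and ATP6 at -0.92 in MC against FC and ATP6 at -1.08 in MFGR against FFGR.

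Growth restriction was compared within each sex. In males, MFGR against MC, COX3 was 1.43-fold lower (log2 difference -0.52, 95% CI -0.79 to -0.25, SE 0.13), with an unadjusted p of 0.00103 and an adjusted p of 0.0748 in limma, so it was not called. Its MFGR and MC values did not overlap, which held for 1 of 5 members and for 9.71% of all transcripts. The other members had log2 differences of -0.21 for COX1 (95% CI -0.59 to 0.16, adjusted p = 0.556), -0.16 for ATP6 (-0.50 to 0.18, adjusted p = 0.623), -0.048 for COX2 (-0.42 to 0.32, adjusted p = 0.921) and -0.032 for CYTB (-0.42 to 0.36, adjusted p = 0.954). The test called 0 of 5 members, against 0.459% of all transcripts. An unadjusted p under 0.05 in limma was held by 1 member and by 810 of the 4574 transcripts tested. When TPM was rescaled without the 11 mitochondrial transcripts of the study's list, COX3 was called (log2 difference -0.65, adjusted p = 0.0422 in limma). That rescaling called 113 of all transcripts, against 21 before, and put their median log2 difference at -0.15. With median-of-ratios scaling COX3 was at -0.50 (adjusted p = 0.103 in limma) and was not called. Over all 29 alternatives the adjusted p of COX3 ran from 0.0187 to 0.869. This comparison and MC against FC share the MC libraries, in which COX3 was high.

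In females, FFGR against FC, the 5 log2 differences lay between -0.16 and -0.0014. They were -0.072 for COX1 (95% CI -0.45 to 0.30), -0.16 for COX2 (-0.52 to 0.21), -0.16 for COX3 (-0.43 to 0.11), -0.15 for CYTB (-0.54 to 0.24) and -0.0014 for ATP6 (-0.34 to 0.34), with adjusted p between 0.855 and 1 in limma. All 5 members overlapped between the groups, where 3.85% of all transcripts did not. The test called 0 of 5 members and 0% of all transcripts, and 0 members but 337 transcripts had an unadjusted p under 0.05. Over the 5 members the 95% intervals of the fold reached from 0.690 for CYTB to 1.26 for ATP6, and changes within these limits remain possible.

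Whether growth restriction acted differently in the sexes was tested as an interaction, MFGR minus MC less FFGR minus FC. COX3 had the most negative value, -0.36 on the log2 scale (95% CI -0.74 to 0.026, adjusted p = 0.48 in limma). For COX1, COX2, CYTB and ATP6 the values lay between -0.16 and 0.12, with adjusted p between 0.793 and 0.888. The interaction called 0 of 5 members and 0% of all transcripts, where 511 transcripts had an unadjusted p under 0.05.

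Ratios between 2 transcripts of one library do not depend on how libraries are scaled to each other. COX1 to ATP6 was 1.75, 2.37, 2.16 and 1.86 in MC and 2.01, 1.94, 1.79 and 2.06 in MFGR. The same ratio was 0.760, 0.746, 0.769 and 0.786 in FC and 0.496, 0.852, 0.738 and 0.904 in FFGR. All male libraries thus held more COX1 than ATP6 and all female libraries less.

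COX3 to ATP6, neighbouring genes, was 1.33, 1.52, 1.44 and 1.62 in MC and 0.982, 1.33, 1.24 and 1.11 in MFGR. The female ratios were 0.489, 0.448, 0.477 and 0.462 in FC and 0.363, 0.461, 0.418 and 0.445 in FFGR. MFGR lay below MC without overlap, while FFGR and FC overlapped.

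The sexes were compared with an exact permutation test that exchanged sex labels within controls and within growth-restricted fetuses, two-sided, over 20 tests of 10 ratios and 2 factors. All 4 ratios to ATP6 were higher in males, by 2.65-fold for COX1 (log2 difference 1.41), 2.74-fold for COX2 (1.46), 2.94-fold for COX3 (1.56) and 2.70-fold for CYTB (1.43). Each had p = 0.000408, the smallest that 4900 permutations can give, and an adjusted p of 0.00204. Each was also free of overlap between MC and FC and between MFGR and FFGR. The 6 ratios among COX1, COX2, COX3 and CYTB differed between the sexes by log2 values from -0.15 to 0.12, with p between 0.179 and 0.802 in the exact permutation test. These values average 2 comparisons. In MC against FC, COX1 to COX3 was at -0.25, COX2 to COX3 at -0.33 and COX3 to CYTB at 0.36. Each had p = 0.0571 in the exact permutation test of 4 against 4. In MFGR against FFGR they were at -0.041, 0.13 and -0.11. COX1 to COX2, for example, averaged 1.94 ± 0.121 in MC and 1.73 ± 0.162 in MFGR for males, and 1.84 ± 0.173 in FC and 1.95 ± 0.242 in FFGR for females (SD, n = 4 each).

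For growth restriction, with labels exchanged within each sex, COX3 to ATP6 was the only ratio past the adjusted threshold. It was 1.19-fold lower in growth-restricted fetuses (log2 difference -0.26, exact permutation p = 0.00122, adjusted p = 0.0049). Its mean was 1.48 ± 0.122 in MC and 1.16 ± 0.150 in MFGR for males, and 0.469 ± 0.0177 in FC and 0.422 ± 0.0430 in FFGR for females (SD, n = 4 each). Within a sex, the exact permutation test of 4 against 4 gave p = 0.0286 in males, the smallest possible, and p = 0.0571 in females. COX3 to CYTB was lower by a log2 value of -0.25 (exact permutation p = 0.0424, adjusted p = 0.141) and was free of overlap between MFGR and MC. The other 8 ratios had exact permutation p between 0.0816 and 0.934 for growth restriction.

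**Figure D3:**
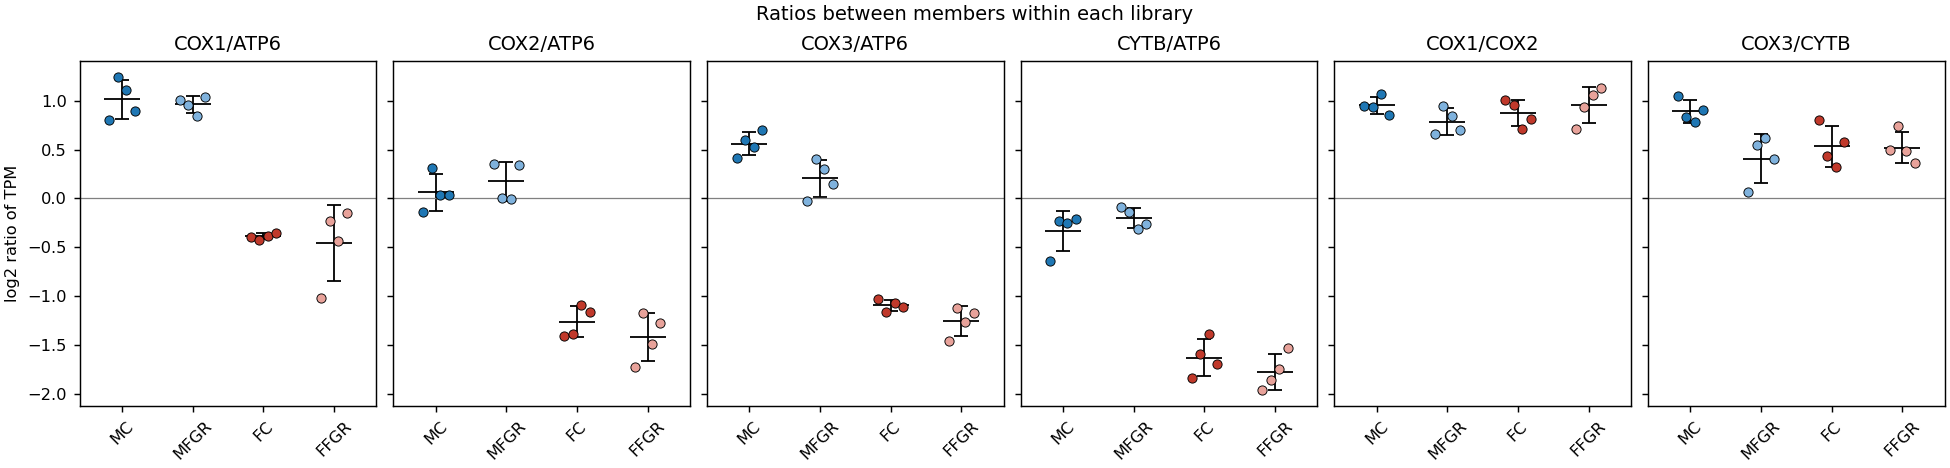
Log2 ratio of TPM values within each library (vertical axis) for 6 of the 10 pairs, by group; points are single fetuses, long lines are means of 4 and bars are 1 SD. The 4 ratios to ATP6 separate males from females, while COX1 to COX2 and COX3 to CYTB lie at like levels in both sexes, apart from the high COX3 to CYTB of MC.

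The same contrast appeared when each transcript was taken as a share of the summed TPM of the 11 mitochondrial transcripts of the study's list, which are the 5 members and ND1 to ND6 of complex I. ATP6 held 10.7% ± 1.22 of this sum in MC and 11.2% ± 0.644 in MFGR, against 23.7% ± 0.859 in FC and 24.8% ± 2.63 in FFGR (SD, n = 4 each). COX1 held 21.6%, 21.8%, 18.2% and 18.2% in MC, MFGR, FC and FFGR, and COX3 15.8%, 13.0%, 11.1% and 10.4%. The shares of COX2 were 11.2%, 12.7%, 9.93% and 9.29% and those of CYTB 8.50%, 9.78%, 7.71% and 7.25% in the same order. Since ATP6 held more and the others less in females, the 5 members together took 67.8%, 68.5%, 70.7% and 69.9%. On this scale the log2 difference of COX1 between MC and FC was 0.25 and that of CYTB 0.14, against 0.48 and 0.38 on the TPM scale, and that of ATP6 was -1.15 against -0.92. In MFGR against MC, 4 members turned from a lower to a higher value in MFGR on this scale, with log2 differences of 0.015 for COX1, 0.18 for COX2, 0.20 for CYTB and 0.066 for ATP6, and COX3 was at -0.29 against -0.52 on the TPM scale.

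**Figure D4:**
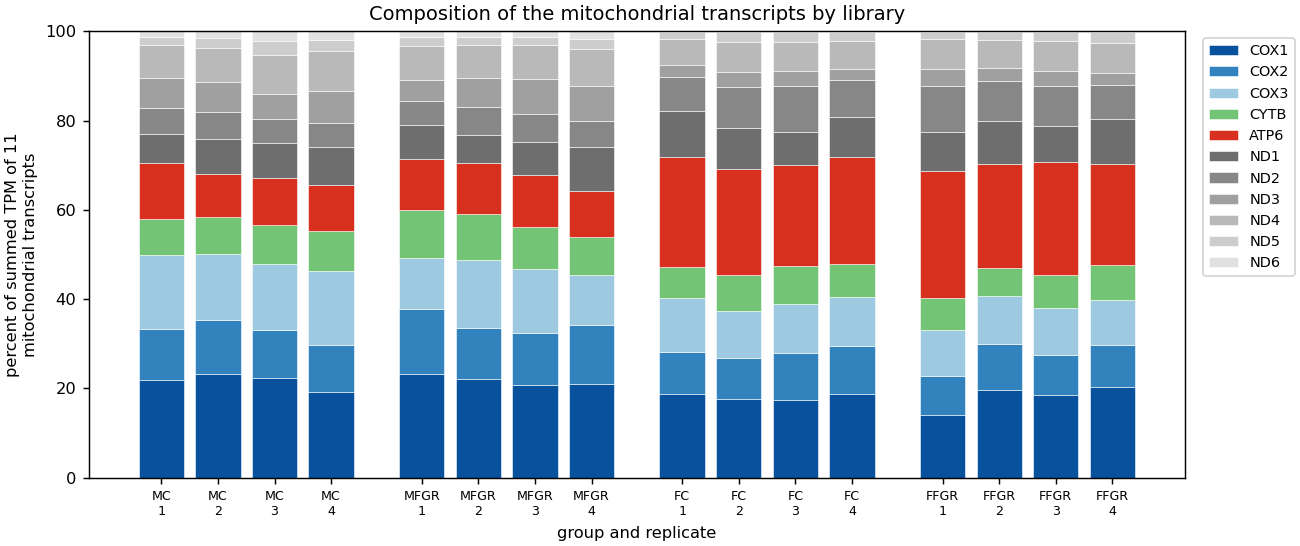
Share of each of the 11 mitochondrial transcripts in their summed TPM (vertical axis, percent) in every library (horizontal axis). Members are coloured and ND1 to ND6 are grey; ATP6 takes 9.76% to 12.5% of each male bar and 22.6% to 28.4% of each female bar.

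Another mitochondrial value moved with sex in the same libraries. ND6 is the protein-coding gene read from the light strand, opposite to the 5 members and to its neighbour ND5. Its ratio to ND5 was 0.698 ± 0.0397 in MC and 0.698 ± 0.00441 in MFGR, but 0.0750 ± 0.0129 in FC and 0.0744 ± 0.00876 in FFGR (SD, n = 4 each). How Salmon was set for strand is not given in the sources used here, and whether male and female libraries were prepared or counted with the same strand setting was not tested. Of 9 marker transcripts of fat and stromal cells, 2 did not overlap between MC and FC and 4 between MFGR and FFGR, to be read against the 37.1% and 42.3% of all transcripts. HOXC9, a white fat marker, was at 2.36 to 6.94 TPM in the 8 male and 7.60 to 11.1 TPM in the 8 female libraries. Leptin, the other white fat marker, overlapped in both comparisons, and its means were higher in males. They were 29.3 TPM in MC, 27.4 in FC, 24.2 in MFGR and 13.2 in FFGR. The stromal marker transcript THY1_202 was at 3.80 to 13.6 TPM in MC and 16.5 to 48.3 in FC, and at 1.70 to 3.82 in MFGR and 8.40 to 49.0 in FFGR. THY1_201 ran the other way in controls, with a mean of 56.3 TPM in MC and 26.3 TPM in FC, and its ranges overlapped. CIDEA_201, of brown fat, was lower in MFGR (68.7 to 88.7 TPM) than in FFGR (110.5 to 127.7 TPM), and the adipocyte marker FABP4 was higher (3216 to 10071 against 1801 to 2796 TPM). In controls mean FABP4 ran the other way, at 2445 TPM in MC and 5205 TPM in FC, with overlapping ranges. ADIPOQ, the other adipocyte marker, had means of 2015 TPM in MFGR and 2699 TPM in FFGR, and its ranges overlapped. The part of these values in the sex difference of the members was not tested. The labels give no date or batch of preparation or sequencing, so no value within a batch can be given, and sex and any handling that went with it cannot be told apart.

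The 6 complex I transcripts and the study's pathway lists give the setting. Among ND1 to ND6, 3 were called higher and 0 lower in MC against FC, namely ND3 (log2 difference 1.43), ND4 (0.60) and ND6 (3.71). In MFGR against FFGR, 2 were called higher, ND3 (1.16) and ND6 (3.35), and none lower. Of all transcripts tested, 6.23% were called higher and 22.6% lower in MC against FC, and 6.49% and 23.6% in MFGR against FFGR. ND2 was lower in males at an adjusted p of 0.0477 and 0.0185 in limma, with log2 differences of -0.43 and -0.52 that stayed under the fold of 1.5, so it shared the direction of ATP6. The median log2 difference of the 6 was 0.54 in controls and 0.20 in growth-restricted fetuses, against -0.20 and -0.19 over all transcripts.

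The study's oxidative phosphorylation list of transcripts lower in MC held 11 transcripts beside ATP6 that were tested. Of these, 11 were called lower in MC against FC (median log2 difference -1.39) and 10 in MFGR against FFGR (median -0.91). Its list of transcripts higher in MC held 10 tested beside COX2, of which 7 were called higher in each of the 2 comparisons (medians 0.66 and 0.93). This list held mitochondrial transcripts too. Its highest log2 differences, 3.71 and 3.35, were those of ND6, and its lowest in MFGR against FFGR, 0.27, was that of ND4. Its counts therefore repeat in part those of ND1 to ND6. The study's thermogenesis list held 15 tested beside ATP6, of which 15 and 14 were called lower (medians -1.32 and -0.87). Beside these counts, 22.6% of all transcripts were called lower and 6.23% higher in MC against FC, and 23.6% and 6.49% in MFGR against FFGR. The study chose these lists on these libraries, so their direction in MC against FC is not independent evidence. In MFGR against MC, 1 of the 11 oxidative phosphorylation transcripts of the lower list was called higher and 1 lower. Of the 10 in the higher list 0 were called, and 0.459% of all transcripts were called either way. This comparison shares the MC libraries on which the lists were chosen. In FFGR against FC, 0 of either list and 0% of all transcripts were called. The transcripts of both lower lists overlap, as thermogenesis includes the respiratory chain.

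Fetuses of one group differed from each other, and the members partly moved together. The pooled SD within groups on the log2 scale was 0.24 for COX1 and COX2, 0.15 for COX3, 0.26 for CYTB and 0.21 for ATP6, and the SD of their ratios was 0.14 to 0.23. With 4 fetuses a group, correlations were taken over all 16 libraries after the group mean was removed, with 100000 permutations within groups and adjustment over the 10 pairs. Pearson's r lay between 0.40 and 0.83, and 7 of 10 pairs had an adjusted permutation p under 0.05.

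The highest correlation was that of COX1 with COX2, neighbours on the genome (r = 0.83, rho = 0.82, permutation p = 0.00013 and 0.00017, adjusted p = 0.0013 for r). It was 0.93 in the 8 males, 0.80 in the 8 females and 0.88 without the 2 fetuses farthest from the median. COX3 with ATP6 had r = 0.76 and rho = 0.72 (permutation p = 0.0072 and 0.00799), with r = 0.51 in males, 0.90 in females and 0.54 without 2 fetuses. COX2 with CYTB had r = 0.75 and rho = 0.72 (permutation p = 0.00074 and 0.00388), and r = 0.66 without 2 fetuses. The 3 pairs that did not pass were COX1 with COX3 (r = 0.53, rho = 0.54, permutation p = 0.0907 and 0.0659, r = 0.53 without 2 fetuses), COX1 with ATP6 (r = 0.51, rho = 0.54, p = 0.102 and 0.0524, r = 0.79 without 2 fetuses) and COX2 with COX3 (r = 0.40, rho = 0.38, p = 0.118 and 0.165, r = 0.49 without 2 fetuses). The pair of COX1 and ATP6 thus depended on FFGR replicates 1 and 4. In males, COX3 had r = 0.17 with COX1 and 0.16 with COX2, against 0.75 and 0.72 in females, and whether the sexes differed here was not tested. The transcripts of a library share its scaling, and with TPM rescaled without the 11 mitochondrial transcripts r lay between 0.71 and 0.91 and 10 of 10 pairs passed. This rescaling multiplies the members of a library by a shared factor, larger where the 11 transcripts sum higher. Its r values therefore cannot show how far the members move together apart from scaling.

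**Figure D5:**
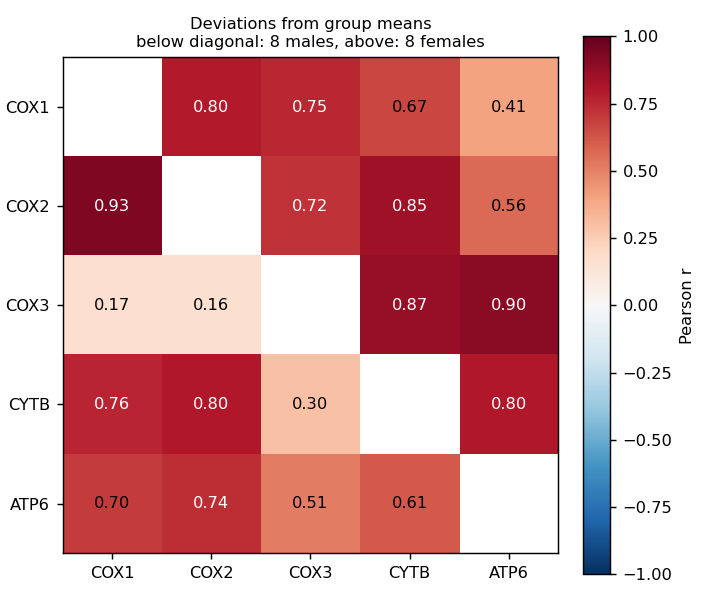
Pearson's r between members of deviations of log2(TPM + 1) from the group mean, over 8 males below the diagonal and 8 females above it (colour scale from -1 to 1). Values run from 0.16 for COX2 with COX3 to 0.93 for COX1 with COX2 in males and from 0.41 to 0.90 in females.

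Across all 16 libraries, with the group differences left in, the members fell into those that resembled each other and ATP6. Over the 4573 other transcripts tested, COX2 was the closest to COX1 (r = 0.90) and COX1 the closest to COX2, while COX2 was the closest to CYTB (r = 0.88). Of the 5 closest transcripts outside the members, ND4 was the only one with a name, at rank 4 for COX1 (r = 0.82) and rank 2 for CYTB (r = 0.87), and the unnamed ENSOART00020005784 ranked 2 for COX1 and COX2. COX3 had COX1 at rank 38 (r = 0.79), and its closest named transcript was ND3 at rank 12 (r = 0.83). ATP6 had r between -0.57 and -0.46 with the other 4 members, the closest transcript was the unnamed ENSOART00020005389 (r = 0.96), and among mitochondrial transcripts ND2 came closest at rank 251 (r = 0.88). These values describe 16 libraries in which sex separates many transcripts, and no test was made.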

How the data were processed

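RNA of perirenal adipose tissue from 16 sheep fetuses, 4 per group, was sequenced from Swift RNA libraries on a NextSeq500. The authors checked reads with FastQC 0.11.9, discarded reads of low average quality and quantified the rest with Salmon (version not given in the sources used here) against the Ensembl transcripts of Oar_rambouillet_v1.0. The authors deposited TPM for 35219 transcripts. TPM is relative to the library, so the depth is unknown and precision was taken from the spread between fetuses.

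Groups and replicate numbers came from the sample titles. A transcript was kept if 3 or more libraries reached 20 TPM, which left 4574. In R 4.3.3, limma 3.58.1 fitted log2(TPM + 1) with 4 group means, without covariates and with a prior variance that follows abundance (12 residual degrees of freedom). P-values were adjusted after Benjamini and Hochberg over all transcripts, and a call needed a value under 0.05 and a fold above 1.5. Ratios within libraries were tested with stratified exact permutation tests and correlations with permutations within groups (Python 3.11.15, numpy 2.4.6, scipy 1.17.1), two-sided. The limma fit and the stratified ratio test were tested on simulated data, and the correlation test was not. Each library is 1 fetus, so p-values measure the spread between fetuses.

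The table pairs no transcript with a gene. Names came from the study's mitochondrial and marker lists, and pathway lists from its supplementary tables. The text names the 5 members, ND1 to ND6, named transcripts among the 5 most like each member, and at most 2 without a name. The nearest named transcript to COX3 and to ATP6 was added beyond this rule after the values were seen. The members, lists and tests were chosen with earlier results of these data known. Alternatives were other pseudocounts, filters, scalings, variance models, library weights and folds, fits of the 8 libraries of a comparison alone, a block for the replicate number, and leaving out each library. The replicate numbers were no pairing: the correlation of deviations between libraries of the same number ran from -0.12 to 0.27.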

Additional observations from a re-analysis of the deposited data

Results flagged for a closer look

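Single libraries were compared with the rest of their group for the 5 levels, the 10 ratios and the sum of the 5 transcripts, in 64 groups of 4 values. By Dixon's test at 95%, 2 values stood apart from the others, where chance gives about 1 in 20 groups, or 3.2 here. COX2 to CYTB was 1.61 in FFGR replicate 2, against 1.18 to 1.19 in the other 3 FFGR libraries. CYTB was at 16254 TPM in that library, the lowest of the 16. CYTB to ATP6 was 0.644 in MC replicate 1, against 0.840 to 0.867 in the other 3 MC libraries, and ATP6 was at 50342 TPM in that library, the highest of the males.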

How the results depend on the processing

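The 2 calls among the members in MC against FC and the 1 in MFGR against FFGR stayed under both other pseudocounts, the filter of 1 TPM, the constant variance, the library weights and the fit of 8 libraries. With no filter on low values 0 and 0 members were called, while 2741 and 3306 of all transcripts were, and the cause was not tested. Median-of-ratios scaling gave 4 and 3, quantile normalization 1 in MC against FC, and rescaling without the 11 mitochondrial transcripts 3 in MC against FC (COX1 added) and 1 in MFGR against MC (COX3). Over all transcripts, MC against FC had 1318 calls as reported, 1257 with median-of-ratios scaling, 1309 with quantile normalization and 1256 with the rescaling. MFGR against FFGR had 1376 as reported and 1354 with median-of-ratios scaling, and MFGR against MC had 21 as reported and 113 with the rescaling. A fold above 2 left 0 in MC against FC, and no minimum fold gave 4 in MFGR against FFGR, as those settings are built. Over all transcripts these 2 settings called 676 and 2053 in the same comparisons. With the replicate block the counts were 2, 0, 0 and 1, unchanged in all 4 comparisons, and the calls over all transcripts in MFGR against MC went from 21 to 7. Leaving out 1 library gave 2 calls each time in MC against FC and 1 to 2 in MFGR against FFGR, where COX2 was called without MFGR replicate 2 (log2 difference 0.59, adjusted p = 0.0195 in limma) or MFGR replicate 3 (0.62, 0.0117), and CYTB without FFGR replicate 4 (0.60, 0.019).

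The 4 ratios past the threshold for sex passed in every alternative run. The 1 ratio for growth restriction, COX3 to ATP6, was lost when labels were exchanged over both sexes (0 ratios, adjusted p = 0.842 in the exact permutation test), where the sex difference enters the spread. Without 1 library 1 to 2 passed, COX1 to COX3 being added without FFGR replicate 1 (log2 difference 0.25, adjusted p = 0.0299) and COX3 to CYTB without FFGR replicate 2 (-0.28, adjusted p = 0.0463).

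In 48 cases of the tested alternatives a difference changed sign, all of them with an adjusted p of 0.859 or more as reported and 0.641 or more in the alternative. As a share of the 11 mitochondrial transcripts, which was not tested, 7 of 25 differences changed sign, with adjusted p of 0.556 or more as reported, namely COX1, COX2, CYTB and ATP6 in MFGR against MC, ATP6 in FFGR against FC (0.058) and the interactions of COX1 (0.027) and ATP6 (0.0077). For ATP6 in FFGR against FC it was 0.024 with median-of-ratios scaling, 0.067 with library weights and -0.071 to 0.14 without 1 library. In MFGR against MC, COX2 and CYTB were at 0.14 and 0.0042 with quantile normalization and at -0.18 to 0.057 and -0.14 to 0.051 without 1 library. In FFGR against FC, COX1 ran from -0.20 to 0.044 and CYTB from -0.27 to 0.020 without 1 library. The interaction ran from -0.024 to 0.21 for COX2 and from -0.053 to 0.23 for CYTB without 1 library and was -0.037 for CYTB with library weights. For growth restriction the log2 ratio without 1 library ran from -0.11 to 0.032 for COX1 to ATP6, -0.070 to 0.00076 for COX1 to COX2, -0.10 to 0.0083 for COX1 to CYTB, -0.060 to 0.031 for COX2 to ATP6, -0.066 to 0.026 for COX2 to CYTB and -0.058 to 0.032 for CYTB to ATP6. On the linear scale COX2 to ATP6 and CYTB to ATP6 were at 0.0240 and 0.0200. For sex, COX1 to CYTB ran from -0.087 to 0.026 and COX2 to CYTB from -0.015 to 0.077. Read depth is unknown, so what it limits cannot be given.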
